A study of Mus musculus with 9 samples.

Results

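The fibroblast growth factor (FGF) system was followed in fracture callus of mice given a STING inhibitor, a STING activator or vehicle. The genes were taken from the deposited table by symbol: every Fgf gene with a number, Fgfr1 to Fgfr4, Fgfrl1, Fgfbp1 and Fgfbp3, and the response genes Spry1, Spry2, Spry4, Dusp6, Etv4 and Etv5. The rule found 35 of the 22054 genes in the table, of which 22 were ligands, 5 receptors, 2 binding proteins and 6 feedback or target genes. Fgf11 to Fgf14 were counted among the ligands by symbol, although they are intracellular and not secreted. No measured value entered the rule.

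FGF ligands are secreted proteins that bind receptor tyrosine kinases on the cell surface together with heparan sulfate, and the receptors pass the signal on through Ras and the ERK kinases. Cells answer by switching on Etv4 and Etv5, transcription factors of the ETS family, and inhibitors of the same path such as the Sprouty proteins and the ERK phosphatase Dusp6. In the skeleton Fgfr1 and Fgfr2 are known from periosteal progenitors and osteoblasts, and Fgfr3 is known from cartilage, where it restrains the growth of chondrocytes.

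All animals were male C57BL/6J mice, labelled as 7 weeks old, with a cut through the shaft of the left femur that was fixed by a needle in the marrow cavity. From the day after surgery each mouse received 200 μl by daily intraperitoneal injection for a week. The H-151 group (3 libraries) received 750 nmol of H-151, a covalent inhibitor of STING. The SR-717 group (3 libraries) received 30 mg/kg of SR-717, a small molecule that activates STING, and the PBS group (3 libraries) received the same volume of phosphate-buffered saline. The fracture was shared by all groups, so every comparison was made on top of it. The study's methods name callus as the tissue, the labels name bone, and the extraction text of the labels speaks of cell lines. The labels number the libraries of each group from 1 to 3 without giving a meaning to the numbers, so p-values measure the spread between these samples, which may in part be technical.

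A library held between 16987398 and 23272480 counts, and between 10389 and 18194 of them fell on the 35 genes. Markers of chondrocytes, osteoblasts, osteoclasts, fibroblasts and skeletal muscle were counted in every library. Libraries 1 of the PBS and SR-717 groups stood apart from the other 7. On the first principal component, which held 46.6% of the variance, SR-717 replicate 1 lay at 100.6, PBS replicate 1 at 38.78 and the others between -28.81 and -4.03. The summed level of 10 chondrocyte markers was 1916 CPM (counts scaled to the library total after TMM normalization) in PBS replicate 1 and 537.6 CPM in SR-717 replicate 1, against 5489 to 16240 CPM in the other 7. That of 8 osteoblast markers was 2833 and 1497 CPM against 3237 to 7152 CPM, that of 7 macrophage markers 1687 and 2920 CPM against 932.7 to 1263 CPM, and that of 7 neutrophil markers 2135 and 8965 CPM against 347.6 to 2327 CPM. In bulk tissue, fewer cells of a type and less RNA per cell cannot be told apart. Some values, among them those of Fgf1, Fgf7, Fgfr3 and Dusp6, are also given without PBS replicate 1, SR-717 replicate 1 or both.

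Expression was spread very unevenly over the 35 genes. Levels between genes are compared in TPM, which is scaled for gene length. Of the 35, 23 were counted in every library, 15 were above 1 TPM in every library and 3 (Fgf8, Fgf15 and Fgf20) had no count in any. A count of 0 allows a level of up to 0.129 to 0.177 CPM, depending on the library, if 3 counts are taken as the floor. These floors cover counting error only and not the spread between libraries. In all, 11 genes, those 3 included, stayed under 10 counts in every library. The receptor genes summed to between 159.3 and 385.0 TPM per library, the 6 feedback and target genes to between 80.6 and 111.8 TPM, and the 22 ligands together to between 17.6 and 39.6 TPM. The ligand sum includes the intracellular FGFs, so the secreted ligands summed to less.

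**Figure D1:**
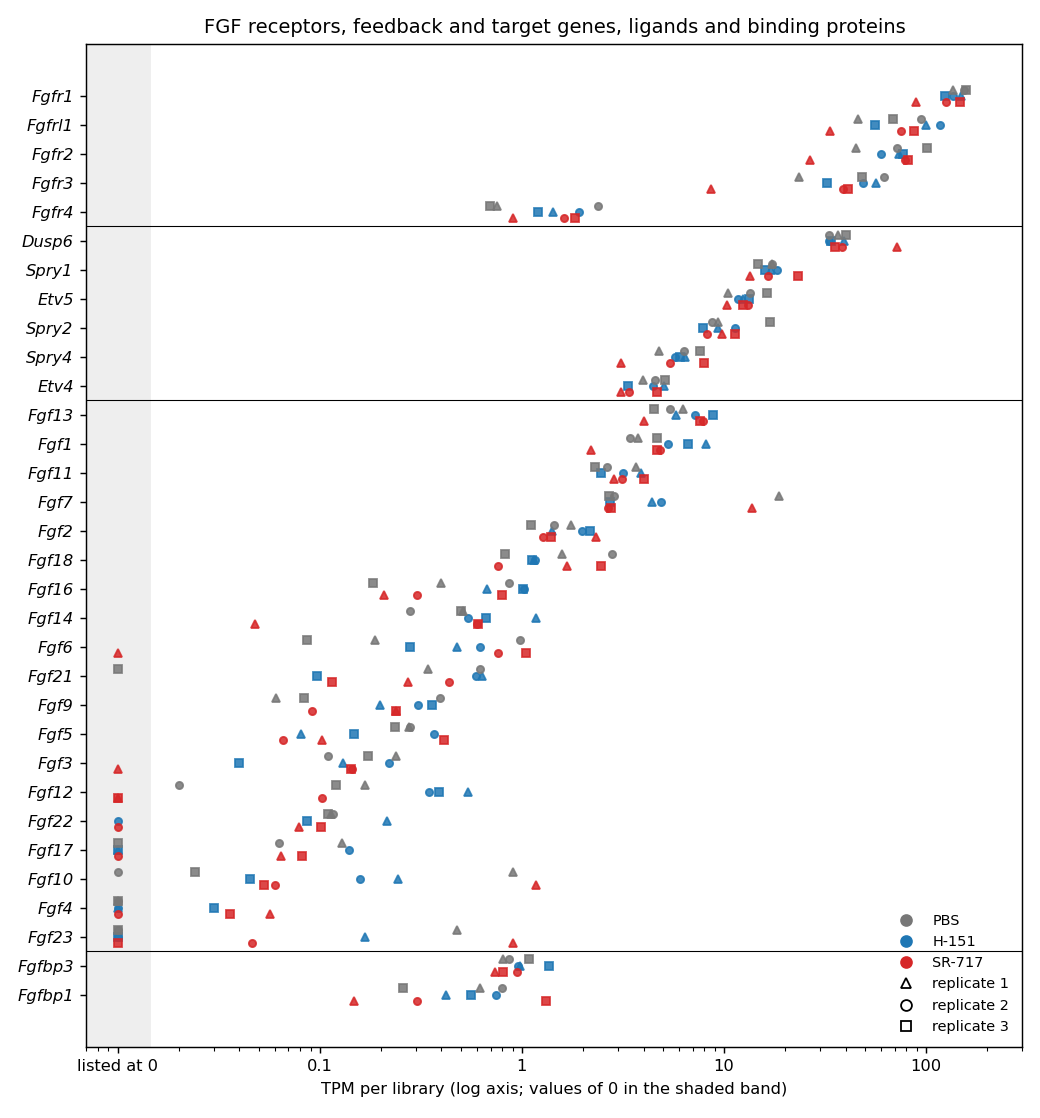
TPM of each FGF gene counted in at least 1 library, on a log axis with values listed at 0 in the shaded band. Colors stand for the 3 groups and symbols for the replicate number. The receptor Fgfr1 was at 89.5 to 157 TPM, the highest of these genes in every library, while most ligands lay under 1 TPM.

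Among the receptors, Fgfr1 (chromosome 8, 25513654 to 25575718, plus strand; positions from GENCODE on GRCm38) was the most abundant in all 9 libraries. Its mean level over the 9 libraries was 135 TPM and ranged from 89.5 to 157 TPM. Fgfrl1, a receptor-like protein that lacks the kinase domain, followed with a mean of 75.3 TPM, and Fgfr2 with 68.4 TPM. These neighbours in the order were not separated, since Fgfrl1 was above Fgfr2 in 6 of 9 libraries. Fgfr3 had a mean of 39.9 TPM and was below Fgfr2 in all 9 libraries, although their ranges overlapped. Fgfr4, known from liver and regenerating muscle, was low at 0.693 to 2.38 TPM, and its range was the only one in this order that did not reach that of the next receptor above it.

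The make-up of the receptor pool differed between libraries. Fgfr1 made up 37.4% to 42.8% of summed receptor TPM in 7 libraries, 54.2% in PBS replicate 1 and 56.2% in SR-717 replicate 1. The share of Fgfr3 was 11.2% to 16% in the same 7 libraries, 9.32% in PBS replicate 1 and 5.42% in SR-717 replicate 1. Both libraries that stood apart thus lay outside the range of the other 7 for both shares.

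Among the ligands, 10 of 22 were counted in every library and 5 were above 1 TPM in every library. Fgf13 had the highest mean at 6.38 TPM. It belongs with Fgf11, Fgf12 and Fgf14 to the intracellular FGFs, which are not secreted and act on voltage-gated sodium channels. Among the other ligands, Fgf7 had the highest mean and Fgf1 the highest median (4.65 TPM). Fgf7, a mesenchymal factor that acts on epithelial cells through a splice form of Fgfr2, had a mean of 6.18 TPM and a median of 2.85 TPM. Fgf1, which can bind all FGF receptors, had a mean of 4.85 TPM, Fgf11 3.12 TPM, Fgf2, a long-known mitogen of skeletal progenitors, 1.65 TPM, and Fgf18, a factor of cartilage and bone growth, 1.5 TPM. Fgf13 was above Fgf1 in 7 of 9 libraries and Fgf11 above Fgf7 in only 2 of 9 when ranked by medians, so the first 4 ligands overlapped in level. The lowest TPM of Fgf7 (2.66) was above the highest of Fgf2 (2.32).

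**Figure D2:**
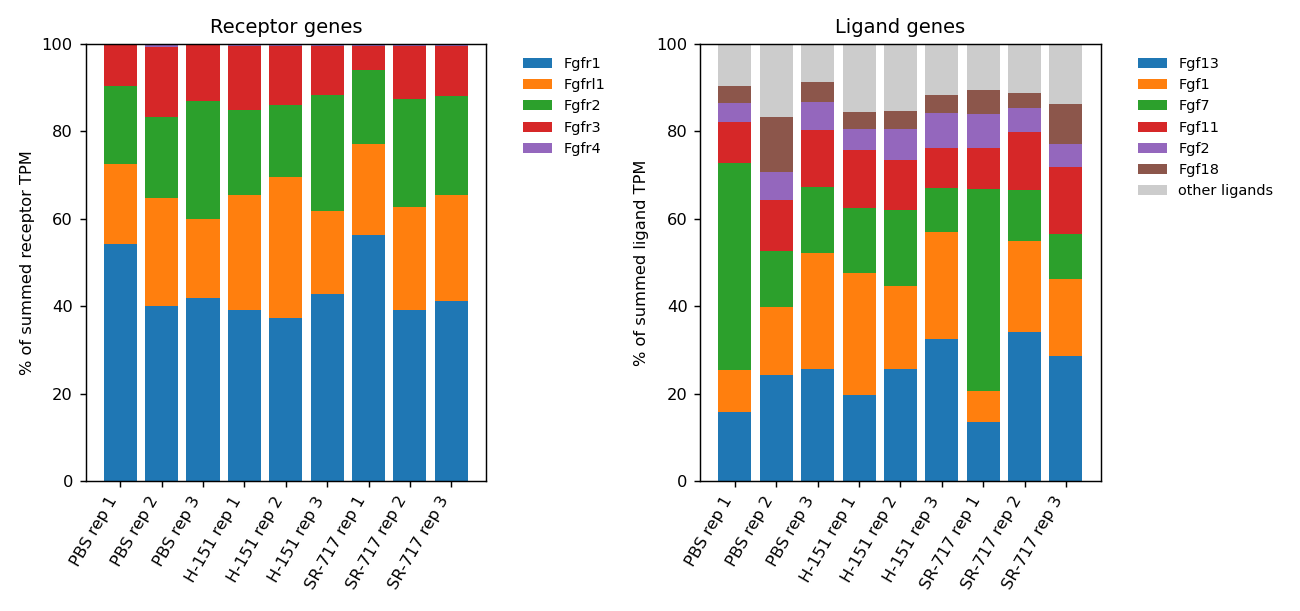
Share of each receptor gene (left) and of the leading ligand genes (right) in the summed TPM of its class, as stacked percentages for each of the 9 libraries. The ligand class includes the intracellular Fgf11 to Fgf14. Fgf7 took 47.5% of ligand TPM in PBS replicate 1 and 46.0% in SR-717 replicate 1 against 10.1% to 17.5% in the other 7, and Fgfr3 was lowest at 5.42% of receptor TPM in SR-717 replicate 1.

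Sequences before the start sites are shown for 5 genes chosen for the libraries they set apart: Fgf7 and Fgf10, which were high in the libraries that stood apart, Fgfr3 and Fgfrl1, which were low in them, and Dusp6, which was high in SR-717 replicate 1. They come from RefSeq on GRCm38.p6, run 5′ to 3′ on the plus strand, on which all 5 genes lie, and end just before the RefSeq start, or for Fgfr3 before the earlier GENCODE start. Capitals mark matches to the motifs described after them.
Fgf7, chr2:126034408-126034657: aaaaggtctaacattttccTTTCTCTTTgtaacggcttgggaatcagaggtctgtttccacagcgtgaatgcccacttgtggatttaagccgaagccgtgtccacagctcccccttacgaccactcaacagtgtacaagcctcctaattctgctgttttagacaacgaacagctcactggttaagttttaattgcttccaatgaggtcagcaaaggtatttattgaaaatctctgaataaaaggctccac
Fgf10, chr13:118714449-118714698: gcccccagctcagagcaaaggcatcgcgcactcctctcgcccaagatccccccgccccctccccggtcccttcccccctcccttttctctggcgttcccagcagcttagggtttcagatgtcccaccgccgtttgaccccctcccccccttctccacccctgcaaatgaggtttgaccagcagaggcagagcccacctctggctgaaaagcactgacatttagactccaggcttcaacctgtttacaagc
Fgfr3, chr5:33721474-33721673: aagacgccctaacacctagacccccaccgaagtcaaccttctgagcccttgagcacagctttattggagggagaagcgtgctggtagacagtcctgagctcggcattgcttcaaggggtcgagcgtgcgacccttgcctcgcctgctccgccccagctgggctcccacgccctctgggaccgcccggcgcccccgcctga
Fgfrl1, chr5:108693979-108694228: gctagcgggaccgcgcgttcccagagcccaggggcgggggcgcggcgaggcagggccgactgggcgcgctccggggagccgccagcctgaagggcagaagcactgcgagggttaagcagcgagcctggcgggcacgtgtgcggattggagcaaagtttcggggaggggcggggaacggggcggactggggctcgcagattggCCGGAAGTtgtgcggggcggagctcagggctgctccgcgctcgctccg
Dusp6, chr10:99262981-99263230: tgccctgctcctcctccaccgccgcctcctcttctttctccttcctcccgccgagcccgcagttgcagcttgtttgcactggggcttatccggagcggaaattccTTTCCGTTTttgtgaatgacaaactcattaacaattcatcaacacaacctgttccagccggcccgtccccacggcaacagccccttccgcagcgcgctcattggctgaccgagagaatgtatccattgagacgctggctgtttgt

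The RefSeq start of Fgf10 lies 44908 bases from the first GENCODE start of the gene and that of Fgfrl1 1847 bases, so other starts exist for both. Windows of 300 bases (250 before to 50 after the start) were found for 26 of the 35 genes and for 27025 genes in all. Motifs were searched on both strands. TTTCNNTTT, part of the interferon-stimulated response element, was in 3 of 26 windows (Dusp6, Fgf7 and Spry2) and in 10.7% of all windows. The ETS motif CCGGAAGN was in 1 window (Fgfrl1) against 9.10% of all, and the κB letters GGGNNTTCC were in 2 (Fgf13 and Spry1) against 5.72%. The AP-1 letters TGANTCA were in none of the 26 against 7.93% of all, which says only that these letters are not in these windows. TATAAA was in 4 (Fgf21, Fgf5, Fgfbp1 and Fgfbp3) against 14.2%. The Fgfrl1 window held 37 CpG dinucleotides, that of Fgfr3 26, Dusp6 19, Fgf7 11 and Fgf10 10, and the median window of all genes held 7. The matches are descriptions of the letters and not binding sites.

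Several of the genes are neighbours. Spry4 and Fgf1 lie on chromosome 18 (38586247 to 38601415 and 38838673 to 38929472, both on the minus strand) with a gap of 237.3 kb and 0 protein-coding genes between them. Fgf2 and Spry1 lie 229.8 kb apart on chromosome 3 with 1 protein-coding gene between them, Fgf6 and Fgf23 are 44.7 kb apart on chromosome 6, and Fgf3, Fgf4 and Fgf15 follow each other on chromosome 7. On the opposite strand, Fgf2 overlaps Nudt6, Fgf7 overlaps Fam227b and Fgf1 overlaps Arhgap26. The span that GENCODE M21 gives for Fgfr2 runs over many other genes, among them Ate1 on the same strand and Tacc2 on the opposite one. The annotation behind the counts is not given, so the span of Fgfr2 used there may differ. Whether the counting used the strand is not stated, so counts of these overlapping genes are uncertain. Fgf2 and Fgfr2 were also the 2 genes of the 35 with expected counts that were not whole. In the KEGG annotation of the table, 27 of the 35 carried a pathway and 23 of them were listed under MAPK signaling.

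To ask how activation and inhibition of STING were each reflected in this system, the 3 groups were compared 2 at a time with edgeR's quasi-likelihood test over all genes that passed a filter on low counts. A gene was called at an unadjusted p under 0.05 and a change of at least 1.5-fold, the thresholds the study names, and calls at an adjusted p (Benjamini-Hochberg) under 0.05 were counted too. Fold changes are given on the log2 scale with standard errors (SE). An exact permutation test of 3 libraries against 3 cannot give a two-sided p below 0.1 for a single value, so tests rest on the fit across all genes. An unadjusted p under 0.05 was reached by 0.689% of genes tested in SR-717 against PBS and 0.646% in H-151 against PBS. In SR-717 against H-151 the share was 1.03%. These shares are lower than a threshold of 0.05 gives when no gene changes, so the fits were conservative. A gene that was not called is therefore not shown to be unchanged.

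In the SR-717 group none of the FGF genes passed the test against PBS. Of the 35, 20 passed the filter and 0 were called, against 0.519% of the 14070 genes tested. At an adjusted p under 0.05 the share of all genes was 0.0%, with 97 genes at an unadjusted p under 0.05, and DESeq2's Wald test gave 138 genes past both thresholds, 0 at an adjusted p under 0.05 and 0 of the FGF genes. The log2 fold change was positive for 9 of the 20, with a median of -0.04 beside 0.01 over all genes. None of the 20 had groups that did not overlap in CPM, which was the case for 3.75% of all genes. The smallest unadjusted p of the 20 was 0.174, for Dusp6, and all 20 had an adjusted p of 1 in edgeR. Without the number 1 libraries of both groups, 1 of the FGF genes was called, Fgf13 (log2 fold change 0.66, SE 0.240), and it was also called when SR-717 replicate 1 alone was left out (0.62, SE 0.231). Those fits called 118 and 106 of all genes, against 73 with every library.

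**Figure D3:**
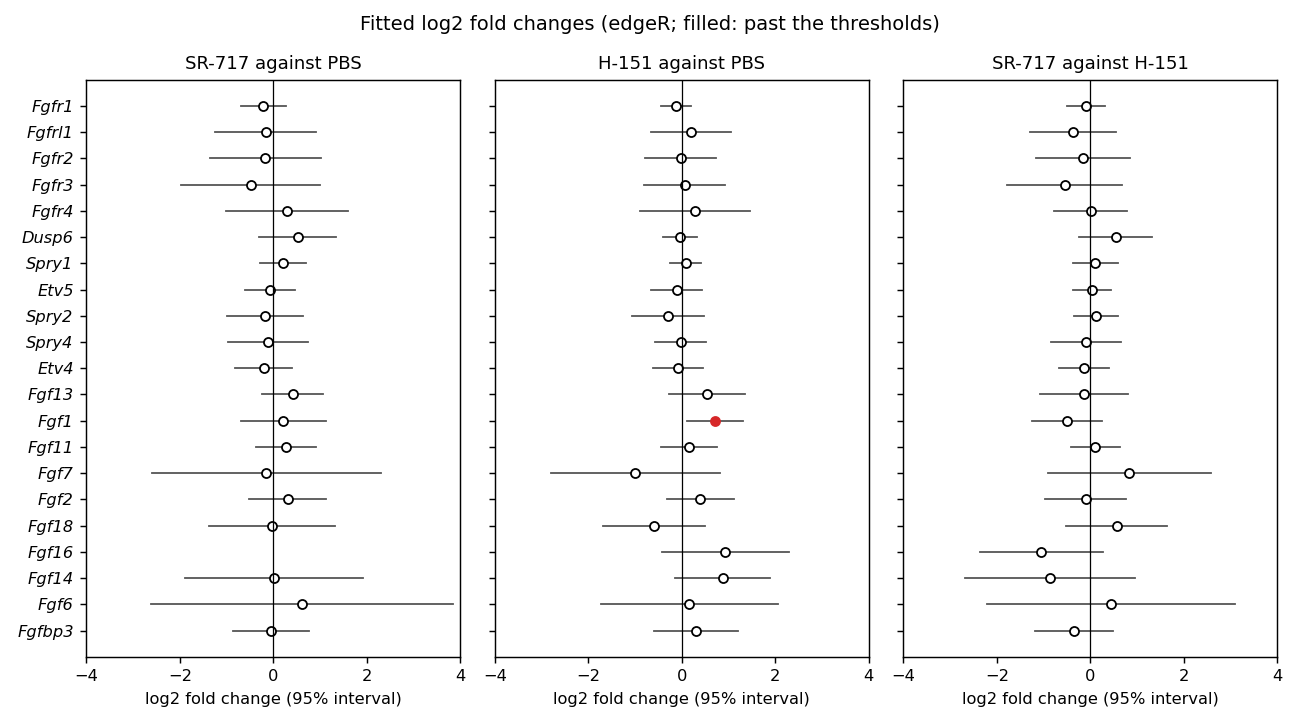
Log2 fold changes with 95% intervals from edgeR for the FGF genes that passed the filter, in SR-717 against PBS (20 genes), H-151 against PBS (21) and SR-717 against H-151 (21). The filled red point, Fgf1 in H-151 against PBS, is the only gene past both thresholds, and the intervals of the others cross 0.

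Fgfr3 (chromosome 5, 33721674 to 33737068, plus strand) had 38.9, 110 and 99.0 CPM in the PBS libraries 1, 2 and 3, and 19.0, 78.1 and 80.6 CPM in the SR-717 libraries. In the H-151 libraries it had 94.5, 89.6 and 74.8 CPM. The SR-717 library was the lower one in each of the 3 same-numbered pairs, while the groups as wholes overlapped. The log2 fold change of SR-717 against PBS was -0.48 (SE 0.617, 95% interval -1.97 to 1.01, adjusted p = 1, edgeR). The replicate numbers have no stated meaning and were taken as pairs from correlations in these same data. With the number as a block Fgfr3 was called at an unadjusted p under 0.05, with a value of -0.60 (SE 0.197). The block also raised the share of all genes called to 3.15%, against which the 1 of 20 FGF genes (5%) is to be read. Without the block and without the number 1 libraries of both groups the value was -0.38 (SE 0.150), not past the threshold. It was -0.05 without SR-717 replicate 1 alone and -0.82 (SE 0.615) without PBS replicate 1 alone, neither of them called. Chondrocyte markers moved with it: all 10 had negative log2 fold changes in SR-717 against PBS, with a median of -0.91 and 0 of 10 called. Their part in the result was not tested.

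The other receptors were not called between these groups. Fgfr1 had 262, 287 and 323 CPM in PBS, 199, 266 and 287 CPM in SR-717 and 266, 263 and 271 CPM in H-151. Its log2 fold change of SR-717 against PBS was -0.21 (SE 0.197), and -0.07 without SR-717 replicate 1. The SR-717 library of replicate 1 was the lowest of the 9, and the H-151 libraries lay closest together. Fgfr2 (chromosome 7, 130162451 to 133123350, minus strand) had 71.3, 110 and 173 CPM in PBS, 45.8, 133 and 136 CPM in SR-717 and 109, 98.5 and 141 CPM in H-151. The difference of SR-717 from PBS was -0.17 (SE 0.494), far under the spread within each group, and it turned to 0.19 without SR-717 replicate 1 and to 0.21 without PBS replicate 3. Fgfrl1 (chromosome 5, 108692382 to 108706924, plus strand) had 40.6, 103 and 68.9 CPM in PBS, 33.5, 70.2 and 85.7 CPM in SR-717 and 84.7, 101 and 57.3 CPM in H-151. Both number 1 libraries of PBS and SR-717 were its lowest, and SR-717 differed from PBS by -0.16 (SE 0.450). This value was -0.44 without PBS replicate 1, 0.15 without SR-717 replicate 1 and -0.12 without both. Fgfr4 (chromosome 13, 55152640 to 55168759, plus strand) had 1.31, 3.97 and 1.29 CPM in PBS, 1.81, 3.05 and 3.27 CPM in SR-717 and 2.31, 3.35 and 2.39 CPM in H-151. Here PBS held both the highest and the lowest library, and the log2 fold change of SR-717 was 0.29 (SE 0.541). It was 1.05 without PBS replicate 2, 0.03 without PBS replicate 1 and 0.03 without PBS replicate 3, none of them called.

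Of the feedback and target genes, 0 of 6 were called in any of the 3 comparisons. Dusp6 (chromosome 10, 99263231 to 99267489, plus strand) had 53.7, 46.5 and 63.1 CPM in PBS, 121 (replicate 1), 60.6 and 53.0 CPM in SR-717 and 53.8, 48.6 and 57.2 CPM in H-151. SR-717 replicate 1 was the highest of the 9 libraries and the other 8 overlapped between groups. The log2 fold change was 0.52 against PBS (SE 0.339) and 0.54 against H-151 (SE 0.322). Without SR-717 replicate 1 these values were 0.07 (SE 0.186) and 0.09 (SE 0.126).

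The Sprouty genes, which restrain the path from receptor to ERK, overlapped between the groups. Spry1 had 22.5, 21.6 and 20.5 CPM in PBS, 20.0, 23.2 and 31.0 CPM in SR-717 and 20.6, 24.0 and 23.8 CPM in H-151. Spry2 had 10.2, 9.13 and 19.7 CPM in PBS, 12.3, 9.76 and 12.6 CPM in SR-717 and 9.52, 12.4 and 9.84 CPM in H-151. Spry4 had 11.9, 15.1 and 20.3 CPM in PBS, 8.83, 14.6 and 20.3 CPM in SR-717 and 14.9, 14.3 and 17.3 CPM in H-151. For Spry4 both number 1 libraries of PBS and SR-717 were the lowest of the 9. The groups overlapped for the ETS factors as well. Etv4 had 4.97, 5.45 and 6.86 CPM in PBS, 4.44, 4.60 and 5.96 CPM in SR-717 and 5.89, 5.62 and 4.84 CPM in H-151. Etv5 had 21.8, 26.8 and 36.4 CPM in PBS, 24.8, 29.6 and 26.5 CPM in SR-717 and 22.9, 24.6 and 31.4 CPM in H-151. For the 5 Sprouty and ETS genes the log2 fold changes lay between -0.20 (Etv4, SR-717 against PBS) and 0.20 (Spry1, SR-717 against PBS), apart from Spry2 in H-151 against PBS at -0.30 (SE 0.326). Their 95% intervals reached a 1.5-fold change in one direction or the other for some genes (Spry4, SR-717 against PBS: -0.97 to 0.75), so that changes of that size are not excluded by these libraries.

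**Figure D4:**
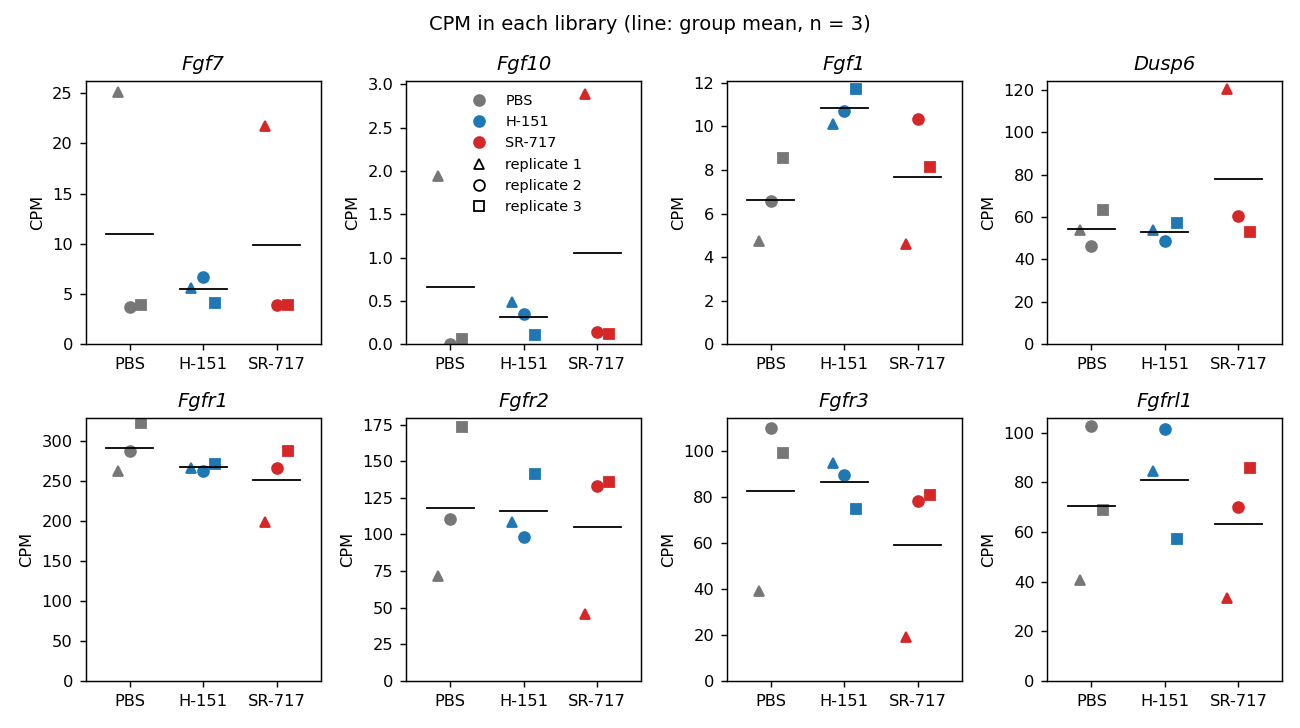
CPM of 8 FGF genes in each library on linear axes that start at 0, with a line at the mean of each group (n = 3) and a triangle for replicate 1. PBS and SR-717 replicate 1 are the highest libraries for Fgf7 (25.1 and 21.7 CPM) and Fgf10 and the lowest for Fgf1, Fgfr1, Fgfr2, Fgfr3 and Fgfrl1, while for Dusp6 only SR-717 replicate 1 stands out.

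Fgf1 was higher in the H-151 libraries than in the PBS libraries, but the difference did not hold after correction over all genes. In H-151 against PBS, 21 FGF genes passed the filter and 1, Fgf1, was called (4.76%), against 0.426% of the 14085 genes tested. Fgf1 had 4.74, 6.60 and 8.54 CPM in the PBS libraries (6.63 ± 1.90, SD, n = 3) and 10.1, 10.7 and 11.7 CPM in the H-151 libraries (10.8 ± 0.822, SD, n = 3). In the SR-717 libraries it had 4.60, 10.3 and 8.12 CPM (7.68 ± 2.89, SD, n = 3). Every H-151 library was above every PBS library, and the SR-717 libraries overlapped with both groups. The log2 fold change of H-151 against PBS was 0.71 (SE 0.253, 95% interval 0.11 to 1.31, adjusted p = 1, edgeR), so the call, made on the unadjusted p, did not hold after correction over all genes. The H-151 library was the higher one in 3 of 3 same-numbered pairs, and with the replicate block the value was 0.74 (SE 0.207), also past the thresholds.

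The call of Fgf1 depended on single libraries. It was kept without H-151 replicate 1 (0.76, SE 0.306) and without PBS replicate 3 (0.93, SE 0.246). Its p missed the threshold without H-151 replicate 2 (0.72), H-151 replicate 3 (0.65) or PBS replicate 2 (0.72). Without PBS replicate 1, which stood apart, p passed and the change of 0.53 was under 1.5-fold. With all 9 libraries in 1 edgeR fit its value of 0.71 missed the threshold for p. Fgf1 is known from fat tissue. The summed level of 5 adipocyte markers was 133.2, 150.3 and 129.4 CPM in PBS and 145.1, 175.6 and 188.5 CPM in H-151. In SR-717 it was 107.0, 168.6 and 165.6 CPM, and the groups overlapped. All 5 had positive log2 fold changes in H-151 against PBS, with a median of 1.23 and 0 called. All 5 were also positive in SR-717 against PBS (median 0.64), where Fgf1 differed by 0.21. Skeletal muscle markers were likewise positive in H-151 against PBS, all 10 of them (median 0.39). The part of these cell types in the result was not tested.

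Fgf14, an intracellular FGF known from neurons, was the other of the 21 tested genes whose H-151 and PBS groups did not overlap. These were 2 of 21 (9.52%), against 3.88% of all genes tested. It had 0.971, 0.507 and 1.01 CPM in PBS, 2.06, 1.04 and 1.45 CPM in H-151 and 0.103, 1.22 and 1.17 CPM in SR-717. The gap between the lowest H-151 library (1.04 CPM) and the highest PBS library (1.01 CPM) was small. The log2 fold change was 0.88 (SE 0.428, 95% interval -0.14 to 1.89, adjusted p = 1, edgeR), and 1.02 without PBS replicate 1. With the replicate block and all libraries it was called at 0.87 (SE 0.348). The block thus gave 2 called FGF genes (9.52%) in a fit that called 1.87% of all genes. Of 6 markers of neurons and Schwann cells, 5 were tested in H-151 against PBS, 3 had positive log2 fold changes, and Tubb3, a neuronal tubulin, was called lower (-0.67, SE 0.179, adjusted p = 1, edgeR).

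The remaining genes tested between H-151 and PBS were not called. Over the 21, 12 log2 fold changes were positive, with a median of 0.08 beside -0.02 over all genes. At an adjusted p under 0.05 edgeR called 0.0% of all genes, with 91 at an unadjusted p under 0.05, and DESeq2's Wald test called 83 genes past both thresholds, 1 of them an FGF gene, and 0 at an adjusted p under 0.05. The receptors differed by -0.12 (Fgfr1, SE 0.138), -0.03 (Fgfr2, SE 0.324), 0.06 (Fgfr3, SE 0.364), 0.28 (Fgfr4, SE 0.498) and 0.20 (Fgfrl1, SE 0.359). For Fgfr1 the 95% interval of -0.45 to 0.21 lay within a 1.5-fold change in both directions. PBS replicate 2 decided other calls: without it Fgf6 (1.72), Fgf16 (1.64) and Fgfr4 (1.05) were called higher in H-151 and Fgf1 was not, in a fit that called 698 genes instead of 60.

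Among the other ligands, the levels of Fgf7 set the libraries that stood apart from the rest. Fgf7 (chromosome 2, 126034658 to 126091185, plus strand) had 25.1, 3.72 and 3.93 CPM in PBS, 21.7, 3.94 and 3.85 CPM in SR-717 and 5.59, 6.66 and 4.11 CPM in H-151. The number 1 libraries of PBS and SR-717 were 6.37 and 5.50 times the median of the other 7. The log2 fold change of SR-717 against PBS was -0.15 with an SE of 1.02 without the replicate block and -0.06 with an SE of 0.196 with it. Without the block it was 1.36 without PBS replicate 1, -1.50 without SR-717 replicate 1 and 0.05 without both. That of H-151 against PBS was -1.0 (SE 0.761), and it turned to 0.52 (SE 0.287) without PBS replicate 1. That of SR-717 against H-151 was 0.84 (SE 0.723) and turned to -0.49 (SE 0.277) without SR-717 replicate 1. Fgf10, a close relative of Fgf7 with the same receptor, showed the same libraries on top with 34 counts in PBS replicate 1 and 56 in SR-717 replicate 1, against 0 to 10 counts in the other 7. Fgf23, a hormone of osteocytes that lowers blood phosphate, had 8 and 19 counts in these libraries and 0 to 3 in the other 7. Neither gene passed the filter in a comparison of all libraries of the groups.

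In CPM, these libraries were both above the other 7 for 1 of the 21 FGF genes tested in any comparison (4.76%) and for 14.5% of all genes tested. They were both below the other 7 for 6 of 21 (28.6%), namely Spry4, Fgf1, Fgfr1, Fgfr2, Fgfr3 and Fgfrl1, and for 14.4% of all genes. So 4 of the 5 receptor genes were lowest in CPM where Fgf7 was highest. For Fgfr1 the margin in PBS replicate 1 was slight, at 262.2 CPM against 262.8 CPM in the lowest of the other 7. For Fgfr1 and Fgf1 the position depended on the unit. In TPM, Fgfr1 was at 136.5 in PBS replicate 1, above 124.5 in H-151 replicate 3. Fgf1 was at 3.75 TPM in PBS replicate 1, above 3.43 TPM in PBS replicate 2. Relative to the median of the other 7, PBS replicate 1 and SR-717 replicate 1 stood at 0.434 and 0.212 for Fgfr3 and 0.480 and 0.396 for Fgfrl1. They stood at 0.536 and 0.344 for Fgfr2, 0.469 and 0.455 for Fgf1, 0.966 and 0.733 for Fgfr1 and 0.789 and 0.584 for Spry4. The chondrocyte and osteoblast markers were also below, and the macrophage markers above, the range of the other 7 in both libraries. The summed level of 8 periosteal and fibroblast markers was 17020 and 17960 CPM against 10380 to 16740 CPM. As a mean of log2(CPM + 1), which weighs these 8 equally, they were at 8.66 and 8.76, below PBS replicate 3 at 8.84. The part of these cell types in the levels of the FGF genes was not tested.

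The intracellular Fgf13 (chromosome X, 59062145 to 59568071, minus strand) had 5.31, 5.07 and 5.00 CPM in PBS, 4.75, 7.98 and 7.77 CPM in SR-717 and 4.66, 6.31 and 11.4 CPM in H-151. The PBS libraries lay close together, and each drug group held 1 library below and 2 above them. Its log2 fold change was 0.41 for SR-717 (SE 0.274) and 0.54 for H-151 (SE 0.346), both against the same PBS libraries. Fgf11 had 5.71, 4.02 and 3.93 CPM in PBS, 4.96, 5.26 and 6.25 CPM in SR-717 and 5.74, 5.03 and 4.39 CPM in H-151, and its groups overlapped. Fgf2 (chromosome 3, 37348346 to 37410108, plus strand) had 5.48, 4.35 and 3.71 CPM in PBS, 8.01, 4.32 and 4.44 CPM in SR-717 and 4.12, 5.87 and 7.84 CPM in H-151. Its 2 highest libraries were in different groups. The differences from PBS of 0.31 in SR-717 (SE 0.340) and 0.40 in H-151 (SE 0.304) were not called. Without SR-717 replicate 1 the SR-717 value was -0.04.

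Fgf6, a ligand known from skeletal muscle, had the largest standard errors of the FGF genes tested, in each comparison. It had 0.457, 2.28 and 0.225 CPM in PBS, 0, 2.02 and 2.63 CPM in SR-717 and 1.08, 1.53 and 0.778 CPM in H-151. The summed level of 10 skeletal muscle markers was 16740, 24740 and 5470 CPM in PBS, 12600, 25680 and 32150 CPM in SR-717 and 14730, 25170 and 20100 CPM in H-151. The libraries had the same order for both measures within PBS and within SR-717 but not within H-151, where replicate 3 was lowest for Fgf6 only, and the part of muscle in the level of Fgf6 was not tested. Its standard errors were 0.798 to 1.34 on the log2 scale, and its 95% intervals crossed 0 in all 3 comparisons. Fgf18 had 0.469 to 1.48 CPM over the 9 libraries and Fgf16 0.169 to 1.00 CPM. Of the binding proteins, which release FGFs from the matrix, Fgfbp3 had 0.742 to 1.45 CPM and Fgfbp1 0.103 to 0.818 CPM. The ligands Fgf3, Fgf4, Fgf5, Fgf9, Fgf12, Fgf17, Fgf21 and Fgf22 had at most 9 counts in a library.

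In the direct comparison of the activator with the inhibitor, no FGF gene passed the test. Of 21 tested, 0 were called in SR-717 against H-151, against 0.756% of the 14151 genes tested, and 0 had groups that did not overlap, against 5.19% of all. At an adjusted p under 0.05 edgeR called 0.0% of all genes, with 146 at an unadjusted p under 0.05, and DESeq2's Wald test called 209 past both thresholds, 1 at an adjusted p under 0.05 and 0 of the FGF genes. Of the 21 log2 fold changes 9 were positive, and the median was -0.10 beside 0.02 over all genes. The smallest unadjusted p was 0.102, for Fgf16 (-1.05, SE 0.547), and all 21 adjusted p-values were at least 0.996 in edgeR. Fgf1 differed by -0.51 (SE 0.310), Fgfr3 by -0.55 (SE 0.512, and -0.13 without SR-717 replicate 1) and Fgfrl1 by -0.37 (SE 0.381). Single libraries changed these calls: without SR-717 replicate 1 Fgf6 was called (1.02), without SR-717 replicate 2 Fgf1 (-0.78), and without SR-717 replicate 3 Dusp6 (0.76) and Fgf16 (-1.70). The same fits called 150, 384 and 660 of all genes, against 107 with every library. The comparisons with PBS share the PBS libraries, and each drug group enters 2 of the 3 comparisons, so the values set side by side here are not independent.

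No gene of the wider pathway lists was called either. The same fits called 0.519% of all genes tested in SR-717 against PBS, 0.426% in H-151 against PBS and 0.756% in SR-717 against H-151. At shares this low, 0 called in lists of this size says little about the pathway. Of 17 genes of the signal path below the receptors (such as Frs2, Grb2 and Ptpn11), all 17 were tested and 0 were called in each comparison, with median log2 fold changes of -0.03 (SR-717 against PBS), -0.04 (H-151 against PBS) and 0.04 (SR-717 against H-151). Of 16 other feedback genes and ERK targets (such as Spred1, Dusp4, Egr1 and Myc), 16, 15 and 15 were tested and 0 were called, with medians of -0.01, -0.09 and 0.15. Of 19 co-receptors and genes of heparan sulfate (such as Kl, the syndecans and the Ext genes), 18 were in the table, 16 were tested and 0 were called, with medians of -0.11, -0.08 and -0.07. Of the marker lists of other cell types, the only called genes besides Tubb3 were Dsp, a keratinocyte junction protein, in SR-717 against PBS (1.83, SE 0.592, adjusted p = 1, edgeR) and Myh8, a myosin of regenerating muscle, in SR-717 against H-151 (0.97, SE 0.117, adjusted p = 0.996, edgeR).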

How the data were processed

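RNA of fracture callus was sequenced in 9 libraries (poly(A)-selected, strand-specific, paired-end), and a commercial provider sequenced and analysed them. The authors deposited 1 table with an expected count (an estimated count, often fractional) and a TPM value (scaled for gene length) per gene and library. The genome build is mm10 per the submitters' processing notes, and the aligner, the counting program and the annotation are not given in the sources used here. Values were rounded before testing, which altered the 8.91% that were fractional. No libraries were copies of each other (chi-square per gene of at least 24.7 in 36 pairs).

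Groups came from the labels. Counts were tested with edgeR 4.0.16 (limma 3.58.1, R 4.3.3) by filterByExpr (count of 10, total of 15), TMM and the quasi-likelihood test on the 6 libraries of 2 groups, without covariates. SEs were derived from the F statistic. CPM values shown were TMM-scaled over all 9 libraries. DESeq2 1.42.0 was an alternative, as were its size factors, no filter, a minimum mean count of 50, a joint fit of the 9 libraries, the replicate block, each library left out and a 2-fold threshold. Leaving out both number 1 libraries of PBS and SR-717 was added after the data were seen. The fit was tested on simulated data. Over genes, the deviation of a library from its group mean correlated with that of the library of the same number at 0.65, 0.34 and 0.14 (SR-717 and PBS, numbers 1 to 3), 0.31, 0.49 and 0.50 (H-151 and PBS) and 0.34, 0.06 and 0.08 (SR-717 and H-151), so the numbers were taken to pair each drug group with PBS (all above 0.1) and not the drug groups with each other. If the numbers paired both drug groups with PBS, they would also pair the drug groups with each other, where 0.06 and 0.08 were under 0.1. The labels do not say that the numbers are pairs, so the pairing is uncertain, and it and the calls made with the block rest on these same data.

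The members and lists were chosen with earlier results of these data known. Named in full were called genes, receptors, the 6 feedback and target genes and the 6 ligands of highest mean CPM, and Fgf10, Fgf23, Fgf14 and Fgf16 were added after their values were seen. Marker lists were summed as CPM. Positions are from GENCODE M21 (GRCm38), matched by Ensembl identifier for 35 of 35 genes.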

Additional observations from a re-analysis of the deposited data

How the results depend on the processing

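Counts of called FGF genes were small and moved with the setting, and the cause was not tested. In SR-717 against PBS, 0 became 1 with the replicate block and 1 without both number 1 libraries, and ranged from 0 to 1 when each library was left out. In H-151 against PBS, 1 became 2 with the replicate block, 0 with all 9 libraries in 1 fit and 0 at a 2-fold threshold, and ranged from 0 to 3. In SR-717 against H-151, 0 became 1 with no filter on low counts and ranged from 0 to 2.

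All genes called in SR-717 against PBS numbered 138 with DESeq2's Wald test, 194 with no filter, 37 at a mean count of at least 50, 176 with all 9 libraries, 443 with the paired block, 118 without both number 1 libraries and 41 at a 2-fold threshold, and 95 to 319 with each library left out. In H-151 against PBS they numbered 127 with no filter, 28 at a mean count of at least 50, 263 with the block, 33 at a 2-fold threshold and 43 to 698 with each library left out. In SR-717 against H-151, whose numbers were not taken as pairs, they numbered 143 with the block (54 shared with the 107 called without it). They numbered 209 with DESeq2, 223 with no filter, 61 at a mean count of at least 50 and 171 with all 9 libraries. At a 2-fold threshold there were 69, and 64 to 660 with each library left out.

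Receptor values near 0 changed sign. With each library left out, Fgfr2 ranged from -0.44 to 0.21 (SR-717 against PBS), -0.28 to 0.35 (H-151 against PBS, 0.046 with the block) and -0.38 to 0.20 (SR-717 against H-151). Fgfr3 ranged from -0.27 to 0.34 (H-151 against PBS) and Fgfr1 from -0.20 to 0.045 (SR-717 against H-151). Fgfr4 in SR-717 against H-151 ranged from -0.15 to 0.23, with -0.002 at a mean count of at least 50 and -0.02 with the block. Besides Fgfr3 and Fgf14, the block changed no call of an FGF gene. Low counts kept 14 FGF genes out of all 3 comparisons with every library included.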

Other observations

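Fgf12, an intracellular FGF of neurons and muscle, was singled out after its values were seen, because it was called in SR-717 against H-151 when low counts were not filtered (fitted log2 fold change -3.74, which depends on the prior count). It had 6, 7 and 5 counts in the H-151 libraries, 4, 1 and 1 in PBS and 0, 1 and 0 in SR-717. Summed over each group, 1 count in SR-717 stood against 18 in H-151, a ratio of 0.0537 with an exact 95% counting interval of 0.00129 to 0.340. The interval covers counting error only and not the spread between animals.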
